A study of Homo sapiens with 4 samples.

Results

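The mitochondrial protein import machinery was taken as 34 named human genes, matched by symbol to the Ensembl gene identifiers of the count tables. All 34 matched 1 identifier each, among 60719 genes listed, and 33 of the 34 had enough counts to be tested. The material was RNA pulled down with KIF5A, the neuronal kinesin-1 heavy chain, through its V5 tag. The cells were SK-N-AS, a neuroblastoma line. They had received a d27 mutant construct or a wild-type (WT) one by lipofection the day before, with 2 anti-V5 precipitates for each. Both groups therefore shared the line, the transfection, the V5 tag and overexpressed KIF5A on top of the cells' own. The series title concerns KIF5A mutations linked to amyotrophic lateral sclerosis (ALS), and the comparison asked which RNAs each form of the motor recovers. The labels do not say whether a construct's 2 precipitates came from separate cultures. The p-values weigh the difference between constructs against the spread between these libraries, and that spread may be technical only. No input or mock precipitate was used here, so more of a transcript in the cells and more of it recovered with the motor cannot be told apart.

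Nearly all mitochondrial proteins are encoded in the nucleus, made in the cytosol and brought in through membrane complexes. The TOM complex is the entry gate of the outer membrane, and the SAM complex inserts barrel-shaped proteins into that membrane. Small TIM chaperones carry hydrophobic proteins across the space between the membranes to the TIM22 complex. The TIM23 complex passes presequence-bearing proteins through the inner membrane, where a motor pulls them in, a peptidase removes the presequence and a chaperonin folds the product. Some of these mRNAs are known to be translated near the mitochondrial surface, and kinesin-1 is known to move mitochondria along microtubules in neurons.

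Gene counts totalled 18335151 and 10483082 in d27 replicates 1 and 2 and 8142869 and 10811134 in WT replicates 1 and 2. KIF5A itself took 10.8% and 11.2% of gene counts in the d27 libraries and 9.03% and 14.8% in the WT libraries. A count of KIF5A adds the transfected and the cells' own transcripts, so it does not check which construct a library held. Levels are given as CPM, counts scaled to a common library size, with TMM as the correction for library composition. Of the adrenergic neuroblastoma markers, HAND2 and GATA2 were well detected, whereas TH, which encodes an enzyme of catecholamine synthesis, had 0 and 1 counts in d27 and 5 and 0 in WT. Of 5 markers of other cell types, EPCAM had 0 counts in every library, and ALB, CD68 and PECAM1 had at most 14. The 7 mesenchymal markers summed to 4816 and 4421 CPM in d27 and 3330 and 3585 CPM in WT. FOSL1, a subunit of AP-1, was the 1 of them that passed (log2 fold change 3.57, edgeR adjusted p = 0.00384). Without it the sums were 2899 and 2672 CPM in d27 and 3164 and 3442 CPM in WT. VIM and FN1 had lower values in d27 without passing, while SNAI2, CD44, YAP1 and PRRX1 had log2 fold changes above 0 without passing. The median log2 fold change of these 6 was 0.45. PTPRC, a leukocyte marker, had 101 and 79.8 CPM in d27 and 190 and 162 CPM in WT. It was lower in d27 and passed (log2 fold change -0.96, edgeR adjusted p = 0.0433). The part of these markers in the results was not tested.

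The d27 precipitates held more mRNA of 8 import genes and less of 1. Of 33 genes tested, 8 were higher in d27, 1 was lower and 24 did not pass. Over all 14909 genes tested, 8.00% were called higher and 3.70% lower in d27. The counts were 1192 higher and 551 lower, and 934 and 908 under upper-quartile scaling, where the members numbered 6 and 1. The 8 were the outer-membrane receptor genes TOMM20 and TOMM22, the cytosolic TOMM34, the channel paralog TOMM40L, the oxidoreductase CHCHD4, the TIM23 subunit TIMM21, and both nucleotide exchange factors of the import motor, GRPEL1 and GRPEL2. The 1 lower gene was MTX1, of the SAM complex. A call is a Benjamini-Hochberg adjusted p below 0.05 over all genes in edgeR's quasi-likelihood test. Both d27 libraries lay above both WT libraries for 18 members, where 31.4% of all genes did so, and below them for 6, where 29.8% of all genes did. The median log2 fold change of the 33 members was 0.54, against -0.00043 over all genes tested.

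**Figure D1:**
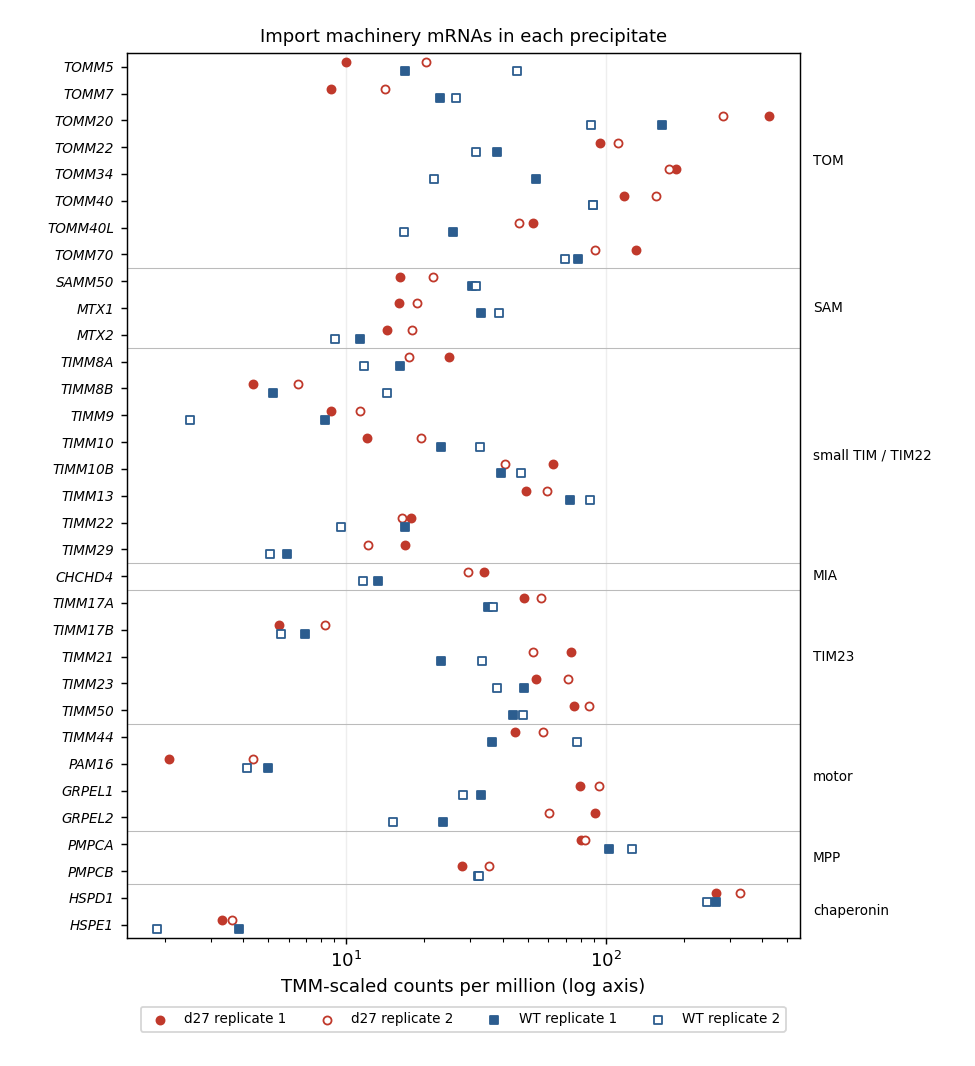
TMM-scaled CPM (log axis) of the 33 tested import machinery mRNAs in each precipitate, with d27 as circles and WT as squares, and rows ordered by complex (MIA, oxidoreductase; MPP, presequence peptidase). TOMM20, TOMM22, TOMM34, GRPEL1 and GRPEL2 show d27 points well to the right of the WT points, whereas TOMM7, SAMM50 and MTX1 show them to the left.

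As a share of all gene counts, the 34 genes took 0.216% in each d27 library and 0.154% and 0.123% in the WT libraries. The exact binomial 95% intervals were 0.214% to 0.218% and 0.214% to 0.219% for d27 and 0.151% to 0.157% and 0.121% to 0.125% for WT. These intervals treat each read as independent and leave out the spread between libraries. The labels name no molecular identifiers on the reads, so copied reads cannot be told from separate molecules. The mean share was 1.56 times as high in d27, at 0.216% ± 0.000363 in d27 and 0.138% ± 0.0218 in WT (SD, n = 2 each). An exact two-sided permutation test gave p = 0.333, which is the smallest value that 2 libraries against 2 can give.

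The group of the TOM complex and its receptors was counted together with the cytosolic TOMM34. This group held 4 of the 8 genes called higher, none lower, among 8 tested, with a median log2 fold change of 0.91. TOMM20 recognises presequences at the mitochondrial surface. It had 425 and 283 CPM in the d27 libraries and 164 and 87.9 CPM in the WT libraries, and no d27 library overlapped a WT library. On the log2 scale the difference was 1.49 ± 0.36 (SE), with an edgeR adjusted p of 0.0376. The call was lost without d27 replicate 1 (adjusted p = 0.0592), without WT replicate 2 (0.0685) and with library totals in place of TMM (0.0585). Under an offset for GC content, coding length and 3' UTR length it passed at 0.83 (adjusted p = 0.0380). Per kilobase of annotated exon, TOMM20 had the highest level of all members in d27, with 99.9 CPM per kb in d27 and 35.6 in WT. In WT libraries that place belonged to HSPD1, at 60.2 CPM per kb, against 70.1 in d27.

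TOMM22, the central receptor that links the other subunits, had 94.7 and 112 CPM in d27 and 38.1 and 31.6 CPM in WT. Both d27 values were more than 2 times either WT value. Its log2 fold change was 1.57 ± 0.25 (edgeR adjusted p = 0.0138), a fold of 2.96. TOMM34, a cytosolic cochaperone that binds preproteins and the HSP70 and HSP90 chaperones, had the largest change of the 33, with 187 and 174 CPM in d27 and 53.7 and 21.8 CPM in WT. The WT libraries differed from each other more than the d27 libraries did, and the log2 fold change was 2.26 ± 0.40 (edgeR adjusted p = 0.0181). Without WT replicate 1 it was 3.09, and without WT replicate 2 it was 1.77, past the threshold in both.

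TOMM40, the pore of the gate, had 117 and 155 CPM in d27 and 89.0 and 89.3 CPM in WT, with a log2 fold change of 0.61 ± 0.24 that did not pass (edgeR adjusted p = 0.136). Its paralog TOMM40L had 52.3 and 46.3 CPM in d27 and 25.8 and 16.7 CPM in WT. The difference of 1.21 ± 0.30 on the log2 scale passed (edgeR adjusted p = 0.0420), but not under 6 of 13 other settings, which included leaving out d27 replicate 1 (adjusted p = 0.151) or WT replicate 2 (0.0881). Under an offset for GC content, coding length and 3' UTR length the TOMM40L value was 0.63 (adjusted p = 0.136). TOMM40L shares exon sequence with NR1I3 on the opposite strand, and the strand setting of the counting is not given in the sources used here. TOMM70, the receptor for carrier proteins, had 131 and 91.2 CPM in d27 and 78.4 and 69.3 CPM in WT and did not pass (0.59 ± 0.26, edgeR adjusted p = 0.174). Whether the receptors differed from one another was not tested.

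No small subunit of the gate passed. TOMM7, which tunes the stability of the complex, had 8.76 and 14.1 CPM in d27 and 22.9 and 26.4 CPM in WT. Its groups did not overlap, and its log2 fold change of -1.11 ± 0.34 did not pass (edgeR adjusted p = 0.0707). It passed under 6 of 13 other settings, DESeq2 among them (adjusted p = 0.0366). TOMM5 had 9.96 and 20.4 CPM in d27 and 16.8 and 45.5 CPM in WT, with overlapping groups. TOMM6, the third small subunit, had 0 counts in every library. In GENCODE release 29 every exon base of TOMM6 lies within another gene on the same strand (ENSG00000124593), so its own reads and that gene's cannot be told apart. TOMM6 is listed at 0, with no statement on its level.

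In the SAM complex the metaxin MTX1 was lower in d27, with 16.0 and 18.8 CPM in d27 and 33.0 and 38.9 CPM in WT. The 2 groups stood apart by more than either group's own range, with a log2 fold change of -1.05 ± 0.28 (edgeR adjusted p = 0.0491). The adjusted p lay close to the threshold. Leaving out d27 replicate 1 (adjusted p = 0.329), d27 replicate 2 (0.121) or WT replicate 2 (0.102), or using library totals (0.0798), ended the call. MTX1 shares exon bases with the opposite-strand gene THBS3. SAMM50, which forms the SAM channel, had 16.2 and 21.7 CPM in d27 and 30.5 and 31.6 CPM in WT (-0.72 ± 0.29, edgeR adjusted p = 0.137). MTX2, the partner of MTX1, had 14.3 and 17.9 CPM in d27 and 11.3 and 9.04 CPM in WT, on the higher side without passing (0.67 ± 0.33, edgeR adjusted p = 0.216).

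Of the 8 genes for small TIM chaperones and the TIM22 complex, none passed edgeR in either direction. At an unadjusted p below 0.05, 1 was higher and 1 was lower, and DESeq2 called 1 higher and 0 lower. Over all 14909 genes tested, 2539 were higher and 2032 lower at an unadjusted p below 0.05, and DESeq2 called 1678 higher and 1231 lower. TIMM29, a TIM22 subunit, came closest, with 16.9 and 12.1 CPM in d27 and 5.92 and 5.09 CPM in WT. The groups did not overlap, and its log2 fold change was 1.40 ± 0.38 (edgeR adjusted p = 0.0512; DESeq2 adjusted p = 0.0299). TIMM13, which had the highest level per kilobase in the group, had 49.4 and 59.1 CPM in d27 and 72.8 and 87.1 CPM in WT (-0.56 ± 0.25, edgeR adjusted p = 0.170).

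The partners within the hexameric chaperones did not share a side. TIMM9 had 8.76 and 11.2 CPM in d27 and 8.31 and 2.49 CPM in WT, and TIMM10, with which it forms a ring, had 12.0 and 19.4 CPM in d27 and 23.2 and 32.7 CPM in WT. TIMM8A had 24.9 and 17.4 CPM in d27 and 16.0 and 11.7 CPM in WT, on the opposite side to its partner TIMM13. None of these 4 differences passed the test, and the difference between partners was not tested. For TIMM9 and TIMM8B the WT libraries differed from each other more than 2-fold. TIMM8B, TIMM10B and TIMM22 had overlapping groups.

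CHCHD4, which oxidises cysteines of incoming proteins and so traps them between the membranes, was higher in d27. It had 34.0 and 29.5 CPM in d27 and 13.2 and 11.6 CPM in WT, with close replicates in both groups. The log2 fold change was 1.35 ± 0.29 (edgeR adjusted p = 0.0278), a fold of 2.55. The call was lost without d27 replicate 1 (adjusted p = 0.147) and held under the other 12 settings tried.

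All 5 genes of the TIM23 complex had a log2 fold change above 0, and 1 passed. TIMM21, which docks the inner channel to the outer gate, had 73.7 and 52.2 CPM in d27 and 23.2 and 33.3 CPM in WT (1.16 ± 0.31, edgeR adjusted p = 0.0488). Every d27 value lay above every WT value, but the call was lost under 5 of 13 other settings, among them leaving out d27 replicate 1 (adjusted p = 0.274) and an offset for GC content, coding length and 3' UTR length, where the log2 fold change was 0.34 (adjusted p = 0.465). TIMM50, the receptor of the complex, had 75.4 and 86.3 CPM in d27 and 43.7 and 47.8 CPM in WT (0.82 ± 0.24, edgeR adjusted p = 0.0629; DESeq2 adjusted p = 0.0346). TIMM23, the core channel subunit, had 53.9 and 71.5 CPM in d27 and 48.2 and 38.1 CPM in WT (0.54 ± 0.27, edgeR adjusted p = 0.225). TIMM23 has a near-identical copy, TIMM23B, so its count is uncertain. TIMM17A, another channel subunit, lay on the same side without overlap, at 48.2 and 56.2 CPM in d27 and 35.0 and 36.8 CPM in WT. Its paralog TIMM17B was low, with 5.50 and 8.27 CPM in d27 and 6.94 and 5.61 CPM in WT, and its groups overlapped.

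Among matrix components both nucleotide exchange factors rose. They release ADP from the mitochondrial HSP70 that pulls proteins in. GRPEL1 had 79.3 and 93.9 CPM in d27 and 33.0 and 28.1 CPM in WT (log2 fold change 1.50 ± 0.25, edgeR adjusted p = 0.0153). GRPEL2, its paralog, had 91.0 and 60.4 CPM in d27 and 23.6 and 15.1 CPM in WT (1.97 ± 0.34, edgeR adjusted p = 0.0157). For both genes the lower d27 library was more than 2 times the higher WT library. GRPEL2 shares 127 exon bases with the opposite-strand gene GRPEL2-AS1. The HSP70 itself, HSPA9, which is not among the 34 genes, had 535 and 485 CPM in d27 and 481 and 432 CPM in WT and did not pass (0.16 ± 0.25, edgeR adjusted p = 0.702). TIMM44, the anchor of the motor, had 44.7 and 57.3 CPM in d27 and 36.4 and 77.4 CPM in WT, and the WT values enclosed the d27 values. PAM16, a regulatory subunit, had 2.07 and 4.37 CPM in d27 and 5.01 and 4.16 CPM in WT. Of its 2383 exon bases, 522 are shared with the readthrough gene CORO7-PAM16, which had 0 counts in every library.

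The peptidase and chaperonin genes did not pass in edgeR, at an unadjusted p below 0.05, or in DESeq2. PMPCA, the subunit that binds presequences, had 80.0 and 83.3 CPM in d27 and 103 and 126 CPM in WT (-0.49 ± 0.23, edgeR adjusted p = 0.199). PMPCB, the catalytic subunit, had 28.0 and 35.3 CPM in d27 and 32.2 and 32.3 CPM in WT, with the WT values inside the d27 range. HSPD1, the matrix chaperonin, had 267 and 328 CPM in d27 and 266 and 246 CPM in WT (0.22 ± 0.24, edgeR adjusted p = 0.582). Its partner HSPE1, which caps the chaperonin, had 3.32 and 3.63 CPM in d27 and 3.87 and 1.87 CPM in WT. The annotation holds 17 pseudogenes named after HSPD1 and 26 named after HSPE1, so both levels are uncertain. Among called members it holds 6 named after TOMM22, 4 each after TOMM20 and CHCHD4, 3 after GRPEL2 and 1 after MTX1, and how such reads were assigned is not stated. HSPD1 and HSPE1 also share exon bases with each other, on opposite strands.

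**Figure D2:**
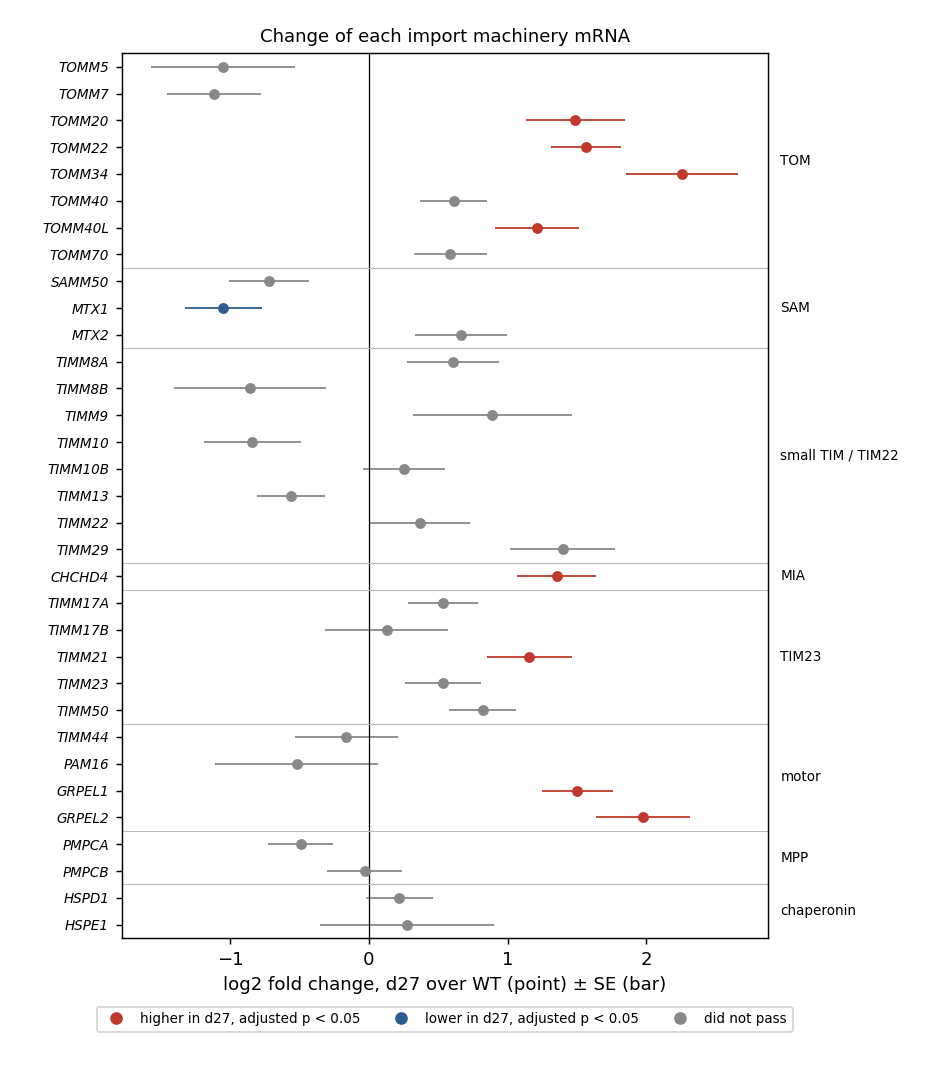
Log2 fold change (d27 over WT, points) with its standard error (bars) for the 33 tested members, by complex; red marks the 8 genes higher and blue the 1 lower in d27 at an edgeR adjusted p below 0.05. The values run from -1.11 (TOMM7) to 2.26 (TOMM34), with all 5 TIM23 genes above 0.

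The 9 calls did not rest equally on the 4 libraries. TOMM22, TOMM34, GRPEL1 and GRPEL2 passed under all 13 other settings tried, which include leaving out each library. Over those settings the log2 fold change lay between 1.01 and 1.75 for TOMM22, 1.77 and 3.09 for TOMM34, 0.84 and 1.67 for GRPEL1, and 1.20 and 2.38 for GRPEL2. Without d27 replicate 1, the most deeply sequenced library, 4 members were called higher and none lower, and over all genes 697 were then called higher and 71 lower. Without WT replicate 1 the members called were 10 higher and 5 lower, as calls over all genes became 2715 higher and 2136 lower.

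**Figure D3:**
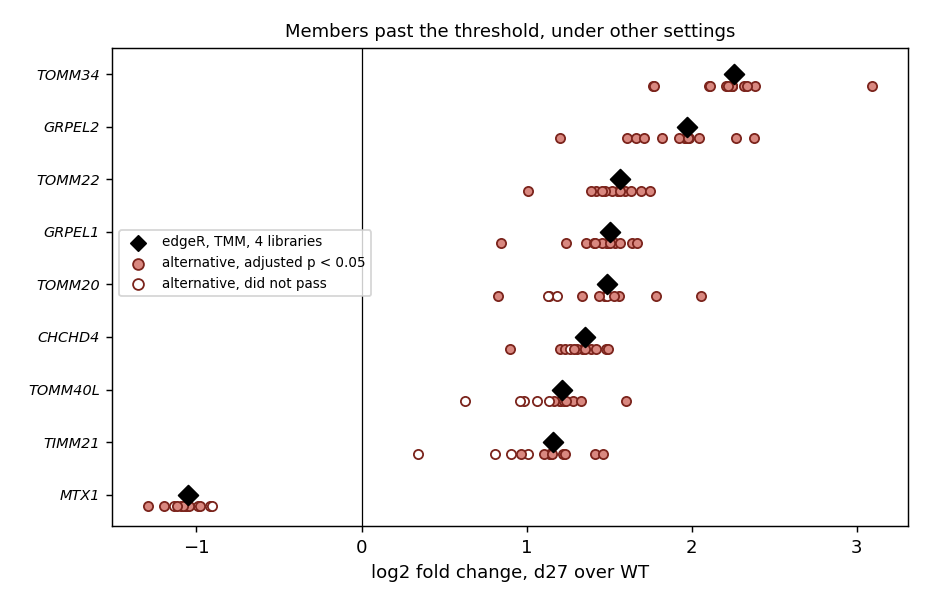
Log2 fold change (d27 over WT) of the 9 members past the threshold: black diamonds are edgeR with TMM on 4 libraries, and circles are the 13 alternatives, filled where the adjusted p was below 0.05. TOMM34, GRPEL2, TOMM22 and GRPEL1 have filled circles only, and every circle keeps the side of 0 of its diamond.

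Most members that rose have long annotated 3' UTRs. With 1 transcript per gene from GENCODE release 29 (the longest coding sequence), the 3' UTR had 3301 bases in GRPEL2, 2728 in TOMM20, 2050 in TIMM21, 1956 in GRPEL1, 1580 in TOMM22, 1512 in TOMM40L, 979 in TOMM34 and 810 in CHCHD4. It had 125 bases in MTX1, 124 in TOMM7 and 150 in SAMM50. Of the 12 tested members at or above the median of all protein-coding genes tested (1018 bases), 6 were called higher and none lower, and their median log2 fold change was 0.99. Of the 21 members below it, 2 were called higher and 1 lower, with a median of 0.13. Over all protein-coding genes tested, 11.5% of those at or above that length were called higher against 7.45% of those below it, with medians of 0.19 and -0.09. Across the 33 members Spearman's rho between 3' UTR length and log2 fold change was 0.66, and across 12275 protein-coding genes it was 0.16. Genes of 1 library share its depth and composition and are not independent replicates, and which transcript ends SK-N-AS cells use was not analysed here. This relation was noticed after the values were seen.

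**Figure D4:**
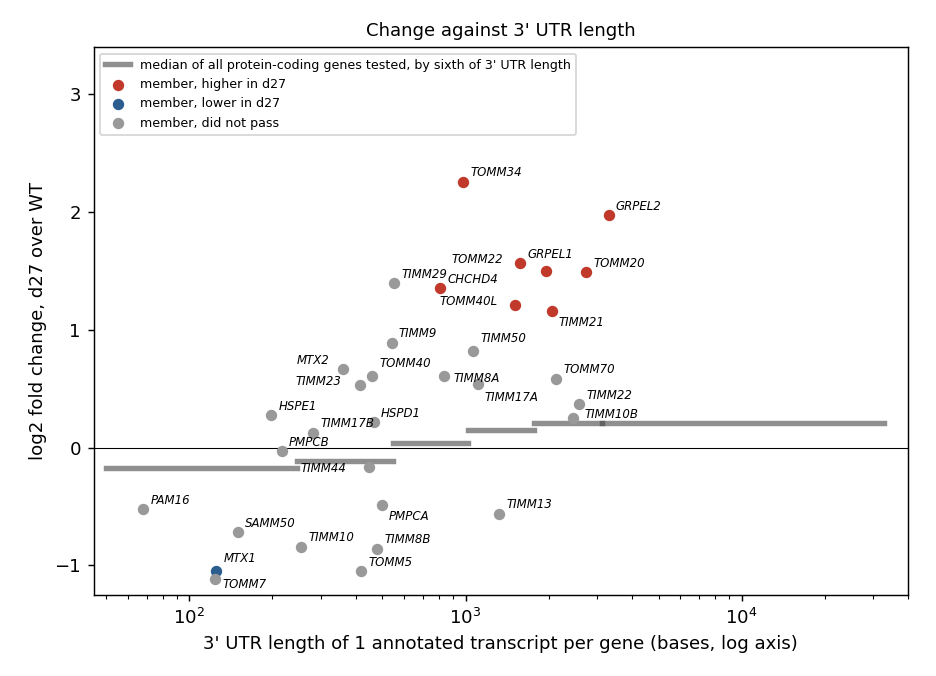
Log2 fold change (d27 over WT) of the 33 members against the 3' UTR length of 1 annotated transcript per gene (bases, log axis), with grey bars for the median of all protein-coding genes tested in each sixth of 3' UTR length (the first bar, which includes lengths of 0, is drawn from 50). The red points, higher in d27, lie at 810 bases and above, and the blue point, MTX1, at 125.

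Coding length was compared in the same way. The sixth of protein-coding genes with the shortest coding sequences (72 to 717 bases) had a median log2 fold change of 0.42 and 19.4% called higher, and the sixth with the longest had -0.65 and 1.32% called higher. Of the tested members, 19 fell in that shortest sixth, with a median of 0.37. The next sixths held 5 members with a median of 1.21, 5 with -0.16 and 4 with 0.09, and the longest 2 sixths held none. Across all protein-coding genes rho between coding length and log2 fold change was -0.40, and across members it was 0.11. The members' median of 0.54 thus stands beside a median of 0.42 to 0.43 for the 2 shortest sixths. With an offset per library for GC content and exon length the members' median became 0.16, against -0.08 for all genes, with 7 higher and 2 lower. A further offset per library covered GC content, coding length and 3' UTR length. Its fit and p-value adjustment held only genes with an annotated coding length. The members' median then became 0.18, against -0.08 for those genes. Members called were 6 higher (TOMM20, TOMM22, TOMM34, CHCHD4, GRPEL1 and GRPEL2) and 3 lower (MTX1, TOMM7 and TIMM13).

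The promoters of 4 members that rose are shown because they hold the letters of the motif of NRF1, a factor known to drive nuclear genes of mitochondrial proteins. The letters of the ETS family, to which GABPA with a like role belongs, stood in 3 of these 4, not in CHCHD4, and also in TOMM22. RefSeq promoter windows around the start (GRCh38.p14) matched 31 of the 34 genes. Sequences run 5' to 3' on the gene's strand, with capitals for the NRF1 motif (GCGC on both flanks) and for CCGGAAG (ETS), on either strand. In TOMM34 the capitals are 1 joined run of both.
TOMM20 (chr1:235128788-235129087, minus strand): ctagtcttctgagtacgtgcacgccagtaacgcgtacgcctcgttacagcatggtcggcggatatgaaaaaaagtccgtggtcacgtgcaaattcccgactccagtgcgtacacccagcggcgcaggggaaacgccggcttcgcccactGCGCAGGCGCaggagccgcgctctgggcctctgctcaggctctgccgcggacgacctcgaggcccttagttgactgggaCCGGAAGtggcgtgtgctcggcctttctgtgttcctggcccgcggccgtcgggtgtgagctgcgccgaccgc
TOMM34 (chr20:44960348-44960647, minus strand): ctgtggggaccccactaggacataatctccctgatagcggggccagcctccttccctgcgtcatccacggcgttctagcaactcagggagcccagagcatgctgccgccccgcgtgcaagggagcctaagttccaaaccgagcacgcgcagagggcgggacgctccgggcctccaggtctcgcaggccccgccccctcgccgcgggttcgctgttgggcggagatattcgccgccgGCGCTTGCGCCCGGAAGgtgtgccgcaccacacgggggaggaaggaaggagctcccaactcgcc
GRPEL2 (chr5:149345249-149345548, plus strand): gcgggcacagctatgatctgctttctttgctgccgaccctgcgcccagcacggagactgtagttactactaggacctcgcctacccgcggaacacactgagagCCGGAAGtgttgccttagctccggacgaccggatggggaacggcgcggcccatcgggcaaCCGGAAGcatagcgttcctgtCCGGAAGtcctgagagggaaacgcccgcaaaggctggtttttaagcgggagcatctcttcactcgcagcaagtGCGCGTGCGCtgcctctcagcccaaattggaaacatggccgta
CHCHD4 (chr3:14124821-14125120, minus strand): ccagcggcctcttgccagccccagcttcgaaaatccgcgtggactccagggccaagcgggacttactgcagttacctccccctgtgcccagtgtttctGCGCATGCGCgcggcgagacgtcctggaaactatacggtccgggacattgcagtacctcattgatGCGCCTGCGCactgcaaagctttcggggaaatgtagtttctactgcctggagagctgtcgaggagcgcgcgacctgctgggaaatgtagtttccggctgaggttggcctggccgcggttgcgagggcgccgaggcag

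The NRF1 letters stood in 10 of the 31 member promoters (32.3%), against 13.4% of the promoters of genes tested and 6.98% of all promoters in the table. The matches of HSPD1 and HSPE1, neighbours on opposite strands, are the same bases and were counted for each gene. The ETS letters stood in 13 (41.9%), against 22.3% of tested genes and 12.2% of all. Of the 7 members called higher that had a promoter, 4 held the NRF1 letters and 4 the ETS letters. Members that did not pass held them too, among them TOMM40 and HSPD1 for NRF1 and TOMM70 and TIMM23 for ETS. The full cyclic AMP response element TGACGTCA stood in 0 member promoters and in 3.94% of those of tested genes. The AP-1 letters TGANTCA, for the FOS and JUN factors, stood in 1 member promoter, that of TIMM10 (3.23%, against 6.92% of tested genes). The heat shock element stood in that of HSPD1 alone (3.23%, against 0.489% of tested genes). Each motif was searched on both strands, and a match of letters is a description, not a bound site.

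PUM proteins bind TGTANATA in 3' UTRs, and their yeast relative Puf3 is known to bind mRNAs of mitochondrial proteins. The letters stood in the 3' UTR of 8 of the 34 members (23.5%) and of 26.7% of protein-coding genes tested, at 0.244 sites per kb in both. The members called higher had 0.134 sites per kb, at a median 3' UTR of 1768 bases against 1018 for protein-coding genes tested. Of the 8 members that rose, TOMM20 and TIMM21 held 1 site each, shown with the match in capitals.
TOMM20: catagttaaacTGTACATAtgacatggctt
TIMM21: atgttacaccaTGTAAATAaaggaaataga
The other members with the letters did not pass the test or, for TOMM6, were not tested.

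Other genes of the pathway were taken as whole lists. Of 18 further import genes, 2 were higher in d27 (11.1%), none was lower and 16 did not pass, with a median log2 fold change of 0.08. Over all genes tested, 8.00% were called higher and 3.70% lower. At an unadjusted p below 0.05, 4 of the 18 were higher and 2 lower, and DESeq2 called 3 higher and 1 lower. Over all 14909 genes tested, the unadjusted counts were 2539 higher and 2032 lower, and the DESeq2 counts 1678 and 1231. XPNPEP3, a peptidase that trims imported proteins, had 87.2 and 79.5 CPM in d27 and 33.3 and 14.97 CPM in WT (1.79 ± 0.38, edgeR adjusted p = 0.0281). GFER, which reoxidises CHCHD4, had 47.9 and 51.1 CPM in d27 and 24.4 and 20.6 CPM in WT (1.14 ± 0.26, edgeR adjusted p = 0.0344). The GFER call was lost without d27 replicate 1, d27 replicate 2 or WT replicate 2, with adjusted p of 0.106, 0.0839 and 0.0650, and with library totals (0.0574). Under an offset for GC content, coding length and 3' UTR length the GFER log2 fold change was 0.39 (adjusted p = 0.274).

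Of 7 genes of the MICOS complex, which shapes inner membrane folds, APOOL was higher in d27 and 6 did not pass. That was 14.3% called higher, against 8.00% of all genes tested. APOOL had 46.7 and 28.8 CPM in d27 and 13.5 and 14.7 CPM in WT (1.42 ± 0.33, edgeR adjusted p = 0.0336). The APOOL call was lost without d27 replicate 1 (adjusted p = 0.256) and under the same offset, where the log2 fold change was 0.62 (adjusted p = 0.166). Of 9 cytosolic chaperone and delivery genes none passed edgeR. At an unadjusted p below 0.05, 2 of the 9 were higher and 1 lower, and DESeq2 called 1 higher and 2 lower. The counts over all genes tested are those given beside the further import genes. Of 13 mitochondrial quality control genes, 1 was higher, 1 was lower and 11 did not pass. That was 7.69% each way, against 8.00% higher and 3.70% lower over all genes tested. ATF5, a transcription factor of the mitochondrial unfolded protein response, had 36.7 and 56.3 CPM in d27 and 11.5 and 12.0 CPM in WT (1.99 ± 0.32, edgeR adjusted p = 0.0137). AFG3L2, an inner membrane protease, had 99.9 and 79.6 CPM in d27 and 166 CPM in each WT library (-0.89 ± 0.24, edgeR adjusted p = 0.0491), and its call was lost without d27 replicate 1 (adjusted p = 0.108), d27 replicate 2 (0.261) or WT replicate 2 (0.0987).

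The mRNAs made inside mitochondria lay on the other side. The 13 mitochondrially encoded mRNAs summed to 3147 and 3749 CPM in d27 and 10811 and 7798 CPM in WT. Of them 9 were lower in d27 (69.2%, against 3.70% of all genes tested), 4 did not pass and none was higher. Their median log2 fold change was -1.40. MT-ND6, a complex I subunit, had 58.1 and 69.8 CPM in d27 and 346 and 187 CPM in WT (-2.06 ± 0.33, edgeR adjusted p = 0.0141). MT-ND5, MT-ND2 and MT-ND1, of the same complex, had log2 fold changes of -1.57, -1.50 and -1.36 (edgeR adjusted p = 0.0180, 0.0182 and 0.0280). These 3 calls were lost without d27 replicate 1 (adjusted p = 0.0882, 0.0776 and 0.114). No test was made of the difference between these mRNAs and the import genes.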

How the data were processed

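Libraries of RNA from 2 d27 and 2 WT anti-V5 precipitates were compared. Per the labels' protocols, RNA was depleted of ribosomal RNA and made into stranded libraries. The authors deposited untransformed read counts for each gene. HTSeq, DESeq2 and the build GRCh38 are named, per the submitters' processing notes; aligner, annotation release, strandedness and versions are not given in the sources read here. HTSeq's summary entries, 25.9% and 36.8% of entries in d27 and 47.6% and 47.3% in WT, were left out.

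Counts were tested with edgeR 4.0.16 (R 4.3.3): TMM, filterByExpr (minimum count 10, minimum total 15), robust glmQLFit and glmQLFTest on group, with Benjamini-Hochberg adjustment over 14909 genes. A standard error is the log2 fold change over the square root of F. Replicates differed by more than counting noise (chi-square per degree of freedom 35.6 in d27 and 53.3 in WT). Coordinates, lengths and GC content came from GENCODE release 29 (GRCh38). Alternatives were DESeq2 1.42.0, other scalings and filters, a replicate block, length and GC offsets (that with coding and 3' UTR length was added after seeing the data) and each library left out.

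Members and lists were chosen with earlier results of these data known. Values per library are given for called members and for the lowest p and highest level per kb of each role group; further members are named for their partners. From each other list, up to 4 called genes are named by lowest p, with HSPA9 and KIF5A.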

Additional observations from a re-analysis of the deposited data

How the results depend on the processing

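The members called higher numbered 8, and 4 to 10 with each library left out; those called lower numbered 1, and 0 to 5. Members called lower became 2 with DESeq2, with the stricter filter (at least 50 counts in 2 libraries) and under the GC/exon-length offset, 3 with the coding-length offset, and 0 with library totals. The members' median of 0.54 became 0.16 and 0.18 with those 2 offsets and 0.38 to 0.72 with a library left out. Upper-quartile scaling moved the median of all genes by -0.15 and the members' to 0.39. The share difference (0.0777 percentage points) kept its sign throughout.

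Calls over all genes (1743; 1192 higher and 551 lower) became 2909 with DESeq2 (1231 lower), 2862 with no filter (1888 and 974), and 768 to 4851 with a library left out (697 to 2715 higher, 71 to 2136 lower). Lower calls became 285 with library totals, 908 with upper-quartile scaling (934 higher), 959 with the stricter filter and 1004 under the GC/exon-length offset.

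With the RIP number as a replicate block the calls were 3575 (2137 higher and 1438 lower), with 10 members higher and 4 lower. The deviations of same-numbered libraries had a correlation of 0.17 across genes; with 2 pairs the libraries share only a number.

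No called member changed sign. Some members that did not pass did: with the coding-length offset TIMM10B (-0.20), TIMM22 (-0.28), TIMM17A (-0.10) and TIMM17B (-0.26), and outside the list KIF5A (0.076) and HSPA9 (-0.0020); under the GC/exon-length offset HSPD1 (-0.088) and TIMM17B (-0.092); with upper-quartile scaling TIMM17B (-0.016); with library totals (0.016) and no filter (0.036) PMPCB. With a library left out, the values spanned -1.37 to 0.066 for TIMM8B, -0.075 to 0.56 for TIMM10B, -0.16 to 0.41 for TIMM17B, -0.56 to 0.51 for TIMM44, -0.17 to 0.15 for PMPCB, -0.14 to 0.93 for HSPE1 and -0.57 to 0.40 for KIF5A. The causes were not tested. Counts were low for HSPE1 (18 to 61 per library) and PAM16 (38 to 47), and each group had 2 libraries.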
